A study of Homo sapiens with 15 samples.

Results

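The subunits of the respiratory chain that are coded in the nucleus were analyzed as a group of 90 genes, chosen by name among the 47634 gene identifiers counted. The members are the protein-coding genes named NDUFA, NDUFB, NDUFC, NDUFS or NDUFV with a number, NDUFAB1, SDHA to SDHD, the UQCR genes, CYC1, the COX4I to COX8 subunits and the ATP5 genes. By these names 39 belong to complex I, 4 to complex II, 10 to complex III, 17 to complex IV and 20 to complex V. Assembly factors and the subunits coded in the mitochondrial genome were left out and are given as separate lists. The rule uses names only, although the set was proposed with earlier results of these data known. NDUFA4 was counted with complex I by its name, although its protein is now placed in complex IV. ATP5S is the former name of a gene now called DMAC2L and is no longer listed among the subunits of the enzyme. Another 2 read-through genes that carry a member's name, NDUFC2-KCTD14 and ATP5MF-PTCD1, had 0 counts in every library.

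The respiratory chain passes electrons from NADH (complex I) and succinate (complex II) through complex III to oxygen at complex IV, and pumps protons whose return drives ATP synthase, here called complex V. Every complex except complex II joins subunits made in the cytosol with subunits made inside the mitochondrion from its own genome, so that both sets of genes have to be expressed. In complexes I, III and V the redox and catalytic work lies with a few conserved core proteins, around which many small accessory proteins are assembled.

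RNA came from IGROV-CP20 cells, a line of human ovarian cancer made resistant to cisplatin, and all 5 conditions used this 1 line. Cells were left untreated or were given 50 µM cisplatin for 24 h. In the other 3 conditions they were first kept for 24 h in 1 of the drugs Tranilast, Telmisartan and Amphotericin B, at 10 µM each, and then received the same cisplatin treatment. There were 3 libraries for each condition, 15 in all, made by 3′ mRNA sequencing (QuantSeq), which reads 1 fragment near the end of each polyadenylated transcript. No condition held a drug without cisplatin, so that the effect of a drug on its own cannot be told apart from its effect on the cisplatin response. The study describes the libraries as biological replicates and its data in general as coming from independent experiments done on separate days, and p-values measure the spread between these libraries.

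Library totals ranged from 1510620 to 3517041 counts. Of the epithelial markers, KRT18 ranged from 84.0 to 209 CPM (counts scaled to a common library size with TMM factors, the trimmed mean of M-values of edgeR), KRT8 from 7.14 to 26.3 CPM and EPCAM from 11.2 to 43.5 CPM. KRT19 ranged from 0 to 6.36 CPM and CDH1 from 1.59 to 10.7 CPM, and PAX8 and KRT7, which many ovarian carcinomas express, had at most 1 count in a library. Of the mesenchymal markers, COL1A1 ranged from 6.38 to 32.8 CPM, COL3A1 from 2.94 to 12.9 CPM and COL1A2 from 0 to 6.70 CPM, while DCN, LUM and PDGFRB had at most 4 counts. The leukocyte gene PTPRC ranged from 2.45 to 75.4 CPM while CD3E was at 0 counts, and the endothelial genes CDH5 and VWF were at 0 counts. Mitochondrial ribosomal RNA took 1.79 to 2.20% of the counts in untreated libraries and 2.10 to 2.53% with Tranilast, but 12.3 to 14.8% with Amphotericin B. With cisplatin alone it took 13.7, 5.61 and 3.41% in replicates 1, 2 and 3, and with Telmisartan 10.8, 12.9 and 3.61%. Cisplatin replicate 1 and Telmisartan replicate 3 therefore stood apart from the other libraries of their conditions. The numbers of members called in each comparison are also given for fits that leave out these or other libraries. For fits without a single library they stand without the count over all genes, which may differ too. Counts by complex, by role, of libraries that do not overlap and of the other gene lists are given with all libraries only.

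Of the 90 genes, 82 passed edgeR's filter on low counts and were tested among 11113 genes. The other 8 are mostly forms used in particular tissues. COX4I2 had 0 counts in all 15 libraries, COX6A2 and COX7B2 had 1 count in all, COX7A1 6, NDUFA4L2 8, COX8C 17, UQCRHL 26 and COX6B2 81. Their widespread counterparts were all measured, so that complex IV was represented by COX4I1, COX5A, COX5B, COX6A1, COX6B1, COX6C, COX7A2, COX7A2L, COX7B, COX7C and COX8A. Pseudogenes by name exist for 50 members, and in 3 of them (COX6A1, ATP5F1E and SDHA) these held at least 10% as many counts as the gene. Genes with at least 10 counts overlapped 27 members on the other strand and 6 on the same strand.

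The sequences before the start sites of the members are shown first, and a link between them and the changes of expression was not tested. Promoters of respiratory genes are known to hold sites for NRF1, for the ETS factor GABPA and for YY1, and many lie in GC-rich sequence with GC boxes read by SP1. RefSeq promoters of 300 bases (250 before the start and 50 after it, build GRCh38.p14) were at hand for 68 of the 90 members. Searched on both strands, the NRF1 letters GCGCNTGCGC occurred in 16 of the 68 (23.5%), against 6.28% of the 27305 promoters in the table. The ETS letters CCGGAAG occurred in 19 (27.9%, against 10.7%), the YY1 letters ATGGCGG in 19 (27.9%, against 5.72%) and the GC box GGGCGG in 40 (58.8%, against 44.6%). None of these words contains another. Among members with a promoter, the ETS letters were in 13 of 33 that fell with Tranilast and in 6 of 31 that were tested and not called. The NRF1 letters were in 6 of 33 and 9 of 31, the YY1 letters in 8 of 33 and 11 of 31, and the GC box in 18 of 33 and 21 of 31. These are matches of letters, not measured binding.

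The promoters shown belong to the member with the smallest p under Tranilast in each complex that had a called member and a printed promoter. NDUFS1, called lower with cisplatin against the direction of most called members, was added. The sequences run from 5′ to 3′ on the gene's own strand, and capitals mark the motif matches.
NDUFA6 promoter (chr22:42090723-42091022, minus strand): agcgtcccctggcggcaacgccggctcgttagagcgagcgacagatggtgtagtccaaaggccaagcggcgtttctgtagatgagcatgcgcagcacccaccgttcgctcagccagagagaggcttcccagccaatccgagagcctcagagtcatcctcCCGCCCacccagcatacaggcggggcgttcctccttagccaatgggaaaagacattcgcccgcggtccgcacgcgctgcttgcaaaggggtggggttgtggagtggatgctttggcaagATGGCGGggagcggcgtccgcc
UQCRH promoter (chr1:46303448-46303747, plus strand): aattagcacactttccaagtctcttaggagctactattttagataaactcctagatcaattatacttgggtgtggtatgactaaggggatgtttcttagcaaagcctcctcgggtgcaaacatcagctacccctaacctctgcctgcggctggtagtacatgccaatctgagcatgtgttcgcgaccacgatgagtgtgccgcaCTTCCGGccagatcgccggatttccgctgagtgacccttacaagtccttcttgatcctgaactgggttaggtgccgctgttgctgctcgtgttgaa
COX6B1 promoter (chr19:35648073-35648372, plus strand): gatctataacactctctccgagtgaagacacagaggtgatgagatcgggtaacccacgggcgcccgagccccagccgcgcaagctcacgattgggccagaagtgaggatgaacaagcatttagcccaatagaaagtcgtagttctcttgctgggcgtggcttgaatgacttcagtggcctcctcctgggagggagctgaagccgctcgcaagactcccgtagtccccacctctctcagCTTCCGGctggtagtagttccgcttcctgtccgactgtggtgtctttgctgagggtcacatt
ATP5PD promoter (chr17:75046920-75047219, minus strand): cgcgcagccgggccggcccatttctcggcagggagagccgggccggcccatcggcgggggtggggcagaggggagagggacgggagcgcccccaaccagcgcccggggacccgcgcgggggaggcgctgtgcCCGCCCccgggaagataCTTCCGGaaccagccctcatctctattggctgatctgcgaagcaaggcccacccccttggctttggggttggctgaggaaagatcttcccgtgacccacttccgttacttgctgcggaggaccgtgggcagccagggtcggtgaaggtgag
NDUFS1 promoter (chr2:206159395-206159694, minus strand): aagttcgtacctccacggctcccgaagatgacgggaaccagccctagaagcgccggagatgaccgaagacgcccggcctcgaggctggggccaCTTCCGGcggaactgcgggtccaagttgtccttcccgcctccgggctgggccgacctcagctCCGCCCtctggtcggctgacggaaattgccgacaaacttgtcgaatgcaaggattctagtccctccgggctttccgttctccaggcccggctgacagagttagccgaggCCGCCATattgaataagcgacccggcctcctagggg
The stretch before NDUFA6 holds 1 GC box and 1 YY1 match, that of UQCRH 1 ETS match, that of COX6B1 1 ETS match, and that of ATP5PD 1 GC box and 1 ETS match. NDUFS1, which was called lower with cisplatin, holds an ETS, a GC box and a YY1 match. Its fall was not seen in the fits with offsets for transcript length, given below.

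The summed level of all 90 genes separated the conditions. It was 14174, 13777 and 13941 CPM in the untreated libraries, 34417, 21383 and 16040.4 CPM with cisplatin, and 11668, 12053 and 11450.5 CPM with Tranilast and cisplatin. With Telmisartan and cisplatin it was 27309, 28999.9 and 11338 CPM, and with Amphotericin B and cisplatin 32688, 28071 and 31568 CPM. Every cisplatin library lay above every untreated library and every Tranilast library lay below every untreated library, while the Telmisartan libraries spanned nearly the whole range. By complex, the sum for complex II went from 82.8 ± 3.7 CPM untreated to 113 ± 30 CPM with cisplatin, 76.8 ± 9.3 CPM with Tranilast and 124 ± 28 CPM with Amphotericin B (SD, n = 3). For complex III the same 4 means were 1705 ± 62, 3745 ± 1697, 1569.9 ± 79 and 4746 ± 337 CPM (SD, n = 3).

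**Figure D1:**
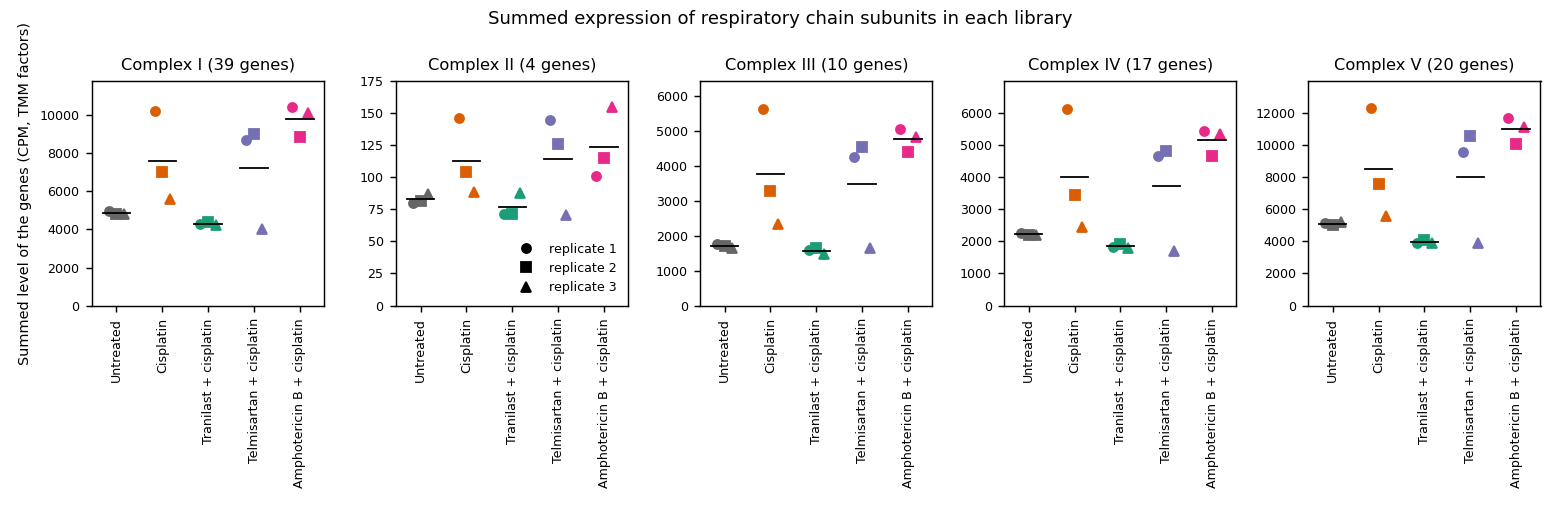
Summed CPM (TMM factors) of the subunit genes of each complex, on a linear axis from 0, with 1 point for each library, the shape giving the replicate, and a bar at the mean of the 3 libraries. Tranilast libraries sit below the untreated ones in complexes I, III, IV and V, cisplatin and Telmisartan libraries are widely spread, and the Amphotericin B libraries are high and close together in these 4 complexes.

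Under a scaling by library size only, the Tranilast libraries again lay below all untreated ones, and the distances were smaller. The sums were 16066 to 16615 CPM untreated, 24819, 20189.9 and 17282 CPM with cisplatin, 14506 to 14818 CPM with Tranilast, 24205, 23855 and 13882 CPM with Telmisartan and 23346 to 24804 CPM with Amphotericin B. In a bulk measurement, a change in the RNA of every cell and a change in the mix of cells cannot be told apart.

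Across libraries the sum moved with other measures. The 3 cisplatin libraries with 13.7, 5.61 and 3.41% of counts on mitochondrial ribosomal RNA had sums of 34417, 21383 and 16040.4 CPM, and the 3 Telmisartan libraries with 10.8, 12.9 and 3.61% had sums of 27309, 28999.9 and 11338 CPM. Cytosolic ribosomal protein genes moved in the same way, with 21.6, 17.4 and 15.6% of counts in the cisplatin libraries, 18.5, 19.0 and 11.2% with Telmisartan, 11.3 to 11.9% untreated, up to 11.5% with Tranilast and 18.4 to 19.2% with Amphotericin B. A fit with the log share of this RNA in each library as a covariate was added after the values had been seen and is called the covariate fit here. The share differs between conditions too, so that its part and that of the treatment cannot be told apart in full. The part of the ribosomal protein genes was not tested.

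**Figure D2:**
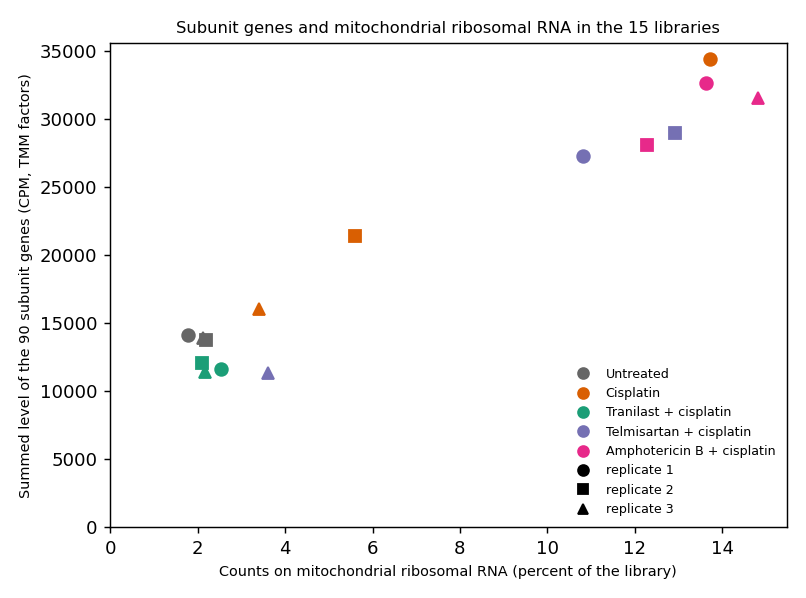
Summed CPM (TMM factors) of the 90 subunit genes against the percent of counts on mitochondrial ribosomal RNA, 1 point for each of the 15 libraries, colored by condition and shaped by replicate. Untreated and Tranilast libraries lie at the lower left with 1.79 to 2.53%, Amphotericin B libraries at the upper right with 12.3 to 14.8%, and cisplatin replicate 1 and Telmisartan replicate 3 lie away from the other libraries of their conditions.

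The response to cisplatin itself was measured first, against untreated cells. Of the 82 tested members, 41 were higher and 2 lower in edgeR's quasi-likelihood test (threshold 0.05, Benjamini-Hochberg adjusted p), where 21.1% of all genes tested were higher and 23.6% lower. Among the 2591 genes of a mean log2 CPM of 6 or more, a level that 61 members reach, 35.4% were higher. The log2 fold change was above 0 for 76 members, with a median of 0.75 against -0.01 for all genes. In 46 members every cisplatin library lay above every untreated one, as in 24.0% of all genes. Called higher were 18 of 38 in complex I, 0 of 4 in complex II, 7 of 9 in complex III, 7 of 11 in complex IV and 9 of 20 in complex V.

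**Figure D3:**
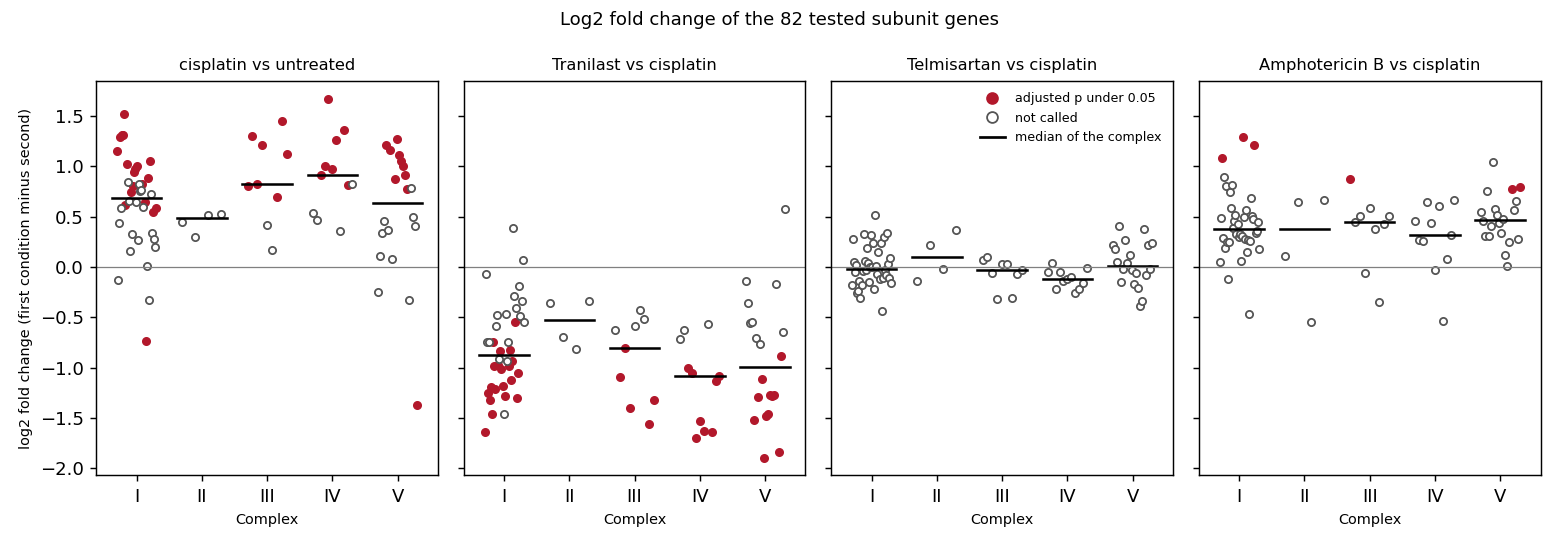
Log2 fold change (first condition minus second, TMM factors) of the 82 tested subunit genes in 4 comparisons, grouped by complex, with filled points for an adjusted p under 0.05, open points for the rest and a line at the median of each complex. Filled points lie mostly above 0 for cisplatin against untreated, all below 0 for Tranilast against cisplatin, are lacking for Telmisartan and number 6 for Amphotericin B.

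COX6B1, a small subunit of cytochrome c oxidase on the side of the intermembrane space, was at 67.3, 65.9 and 65.4 CPM untreated and at 325, 197 and 112 CPM with cisplatin. The groups did not overlap, and the change of 1.67 ± 0.37 on the log2 scale (SE) had an adjusted p of 0.00154. COX7B, another small subunit of this complex, went from 42.3 to 57.4 CPM untreated to 180, 118 and 79.4 CPM (log2 fold change 1.36 ± 0.37, adjusted p = 0.00645). NDUFA4 was at 76.8, 65.0 and 54.2 CPM untreated and at 271, 169 and 122 CPM with cisplatin, with no overlap (1.52 ± 0.35, adjusted p = 0.00219).

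In complex III the hinge protein UQCRH, which helps cytochrome c to dock, was at 413, 443 and 391 CPM untreated and at 1832, 922 and 661 CPM with cisplatin (1.45 ± 0.36, adjusted p = 0.00344). UQCR10, another small protein of complex III, was at 40.2, 44.3 and 45.3 CPM and then at 150, 100.1 and 73.1 CPM (1.31 ± 0.30, adjusted p = 0.0023). In both genes cisplatin replicate 1 was the highest library and replicate 3 the lowest of the condition, and neither overlapped the untreated libraries. In complex I NDUFA6, an accessory protein that binds the acyl carrier NDUFAB1, rose from 169 to 194 CPM to 421, 383 and 307 CPM (1.02 ± 0.22, adjusted p = 0.00158). NDUFS3, a core subunit of the arm that faces the matrix, rose from 117 to 132 CPM to 263, 223 and 218 CPM (0.89 ± 0.18, adjusted p = 0.000707). ATP5MGL, a copy of the ATP synthase gene ATP5MG that lies within another gene on the same strand, had a log2 fold change of 0.91 ± 0.26 (adjusted p = 0.00955).

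The 2 members that fell with cisplatin were NDUFS1 and ATP5S. NDUFS1, the largest core subunit of complex I, which carries iron-sulfur clusters, was at 84.8, 79.4 and 86.6 CPM untreated and at 62.7, 40.7 and 47.7 CPM with cisplatin, with no overlap (-0.73 ± 0.18, adjusted p = 0.00403). With offsets for transcript length this turned to 0.06 (adjusted p = 0.81). ATP5S was at 39.5, 50.1 and 39.5 CPM and then at 21.3, 10.3 and 18.3 CPM (-1.37 ± 0.24, adjusted p = 0.00024). NDUFS1 lies at chr2:206114817-206159603 and overlaps EEF1B2 on the other strand, and reads of overlapping genes may be assigned uncertainly because the use of strand in counting is not given in the sources used here.

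Counts by the role of the protein follow, in a grouping made after the values had been seen and described without a test. Transcript length, which moved with the fold change, was not held equal between the roles. The groups hold few genes, and of all genes tested 21.1% were higher. In complex I, 16 of 31 accessory genes were higher with a median log2 fold change of 0.76, against 2 of 7 core genes with a median of 0.28. The 31 genes include NDUFA4, called higher, which is counted here by its name although its protein is placed in complex IV. In complex III all 5 small genes were higher (median 1.21) and 2 of the 4 core and redox genes (median 0.56), CYC1 and the Rieske protein gene UQCRFS1. In complex V all 5 genes of small membrane proteins were higher (ATP5MD, ATP5ME, ATP5MF, ATP5MG and ATP5MPL, median 1.06), 2 of 3 genes of the c ring, 1 of 5 genes of the F1 head and central stalk and 0 of 4 genes of the peripheral stalk. ATP5F1E was the gene of the F1 part that was called (1.22 ± 0.37, adjusted p = 0.0123), and ATP5F1A and ATP5F1B, the alpha and beta subunits that form the catalytic sites, had log2 fold changes of -0.25 and 0.11. ATP5F1E shares its name with pseudogenes that hold 8151 counts beside its own 23759, so that its value is uncertain.

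Complex II had no called member. SDHA, the flavoprotein that oxidizes succinate, was at 37.0, 41.7 and 38.2 CPM untreated and 53.8, 61.8 and 44.5 CPM with cisplatin, which do not overlap, with a log2 fold change of 0.45 ± 0.18 and an adjusted p of 0.0533. SDHB, SDHC and SDHD had log2 fold changes of 0.30, 0.52 and 0.53 with adjusted p-values of 0.586, 0.285 and 0.547 (same edgeR test). SDHD ranged from 1.59 to 2.80 CPM untreated, where precision is low.

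Counts over all genes are not given here for fits that leave out 1 library. The number of members called higher with cisplatin fell from 41 to 18 without cisplatin replicate 1, and was 26, 25 and 22 without untreated replicate 1, 2 or 3. It was 16 with 6 lower under library size only, where 1019 genes in all were higher and 3351 lower, and 21 with 2 lower with offsets for transcript length, where 2309 were higher and 2149 lower. It was 43 with 7 lower when both libraries that stand apart were left out (3036 genes higher and 3162 lower in all), and 1 with 30 lower in the covariate fit (2382 higher and 2345 lower in all). Scaling by library size only moved the median of all genes to -0.36 and that of the members to 0.32, so that the distance of the members from all genes was 0.69 there and 0.77 with TMM factors, with 61 of 82 members above 0 in place of 76.

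Transcript length moved with these values. The longest annotated transcript had a median of 1510.5 bases in the 82 members and of 3576 bases in the 10964 tested genes with a length. Of the 26 members with at most 1000 bases, 18 were higher with cisplatin (69.2%), against 43.4% of all tested genes of that length. Of the 26 with above 1000 and up to 2000 bases 11 were higher (42.3%, against 34.5%), and of the 30 above 2000 bases 12 (40.0%, against 17.2%). The median log2 fold change in the 3 classes was 1.03, 0.66 and 0.48 for members, and 0.83, 0.38 and -0.16 for all genes.

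**Figure D4:**
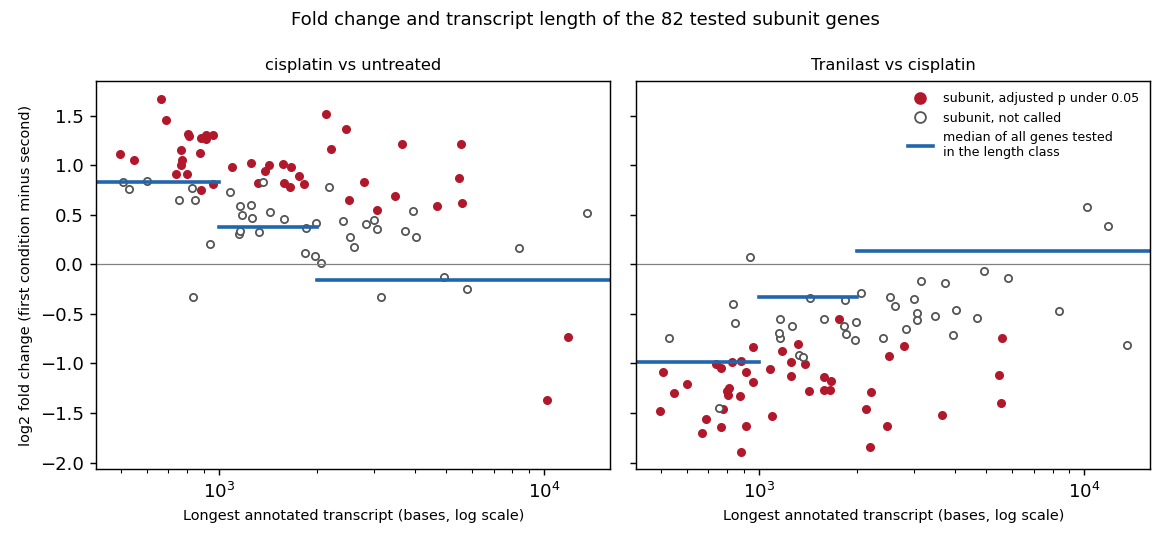
Log2 fold change of the 82 tested subunit genes against the length of the longest annotated transcript (log scale), for cisplatin against untreated and for Tranilast against cisplatin, with filled points for an adjusted p under 0.05. Blue lines give the median of all tested genes up to 1000 bases, from there to 2000 bases and above 2000 bases, and move from 0.83 to -0.16 in the left panel and from -0.98 to 0.13 in the right panel.

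Tranilast, an anti-allergic drug, was compared with cisplatin alone to ask how it changed the cisplatin response. Of the 82 members, 44 were lower and 0 higher (edgeR's quasi-likelihood test), where 11.6% of all genes were lower and 10.5% higher. Among the genes of higher level 24.4% were lower. The number higher was 2 by unadjusted p (threshold 0.05, 18.3% of all genes), and 0 by adjusted p with DESeq2 and limma-voom. The median log2 fold change was -0.90, against 0.02 for all genes, and 79 members lay below 0. In 59 members all Tranilast libraries lay below all cisplatin libraries, as in 18.9% of all genes. Lower were 20 of 38 in complex I, 0 of 4 in complex II, 5 of 9 in complex III, 8 of 11 in complex IV and 11 of 20 in complex V.

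COX6B1 was at 70.3, 62.2 and 61.8 CPM with Tranilast, against 325, 197 and 112 CPM with cisplatin alone, with no overlap (-1.70 ± 0.37, adjusted p = 0.00504). COX7B was at 46.9, 36.0 and 38.4 CPM (-1.64 ± 0.37, adjusted p = 0.00628). NDUFA6 was at 180, 196 and 186 CPM (-0.98 ± 0.22, adjusted p = 0.00638) and NDUFA4 at 68.5, 65.4 and 69.7 CPM (-1.46 ± 0.35, adjusted p = 0.00785). All Tranilast libraries of these 4 genes lay below all cisplatin libraries.

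In complex III UQCRH was at 395, 400.4 and 360 CPM (-1.56 ± 0.36, adjusted p = 0.00642). UQCRB, a small protein near the quinone site of complex III, was at 421, 405 and 372 CPM with Tranilast, against 1585, 956 and 629.9 CPM with cisplatin alone (-1.40 ± 0.31, adjusted p = 0.00554). In complex V ATP5MPL, a small membrane protein of ATP synthase, was at 632, 656 and 566 CPM, against 1947, 1456 and 1061 CPM (-1.27 ± 0.29, adjusted p = 0.00628). ATP5MGL fell by 1.28 on the log2 scale (adjusted p = 0.00429). ATP5PD, the peripheral stalk subunit d whose promoter is shown above, was at 54.0, 51.8 and 59.6 CPM with Tranilast, at 346, 164 and 85.4 CPM with cisplatin alone and at 119, 109 and 116 CPM untreated (-1.84 ± 0.43 against cisplatin, adjusted p = 0.00679). Its Tranilast libraries lay below the libraries of both other conditions.

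Beside the counts by role, 11.6% of all genes tested were lower, and NDUFA4 is again among the 31 accessory genes. By role, with the cisplatin libraries shared by this comparison and the one above, in complex I 19 of 31 accessory genes were lower (median -0.97) and 1 of 7 core genes (NDUFS3, -0.55 ± 0.18, adjusted p = 0.033, core median -0.28). In complex III all 5 small genes were lower and 0 of the 4 core and redox genes, and in complex V all 5 small membrane proteins, 2 of 3 c ring genes, 2 of 4 peripheral stalk genes and 1 of 5 genes of the F1 part. SDHA was at 37.96, 45.3 and 41.5 CPM (-0.35 ± 0.18, adjusted p = 0.167), and this turned to 0.10 under library size only. SDHC had a log2 fold change of -0.81 ± 0.39 with an adjusted p of 0.138 by the same edgeR test. NDUFS1 was at 59.5, 63.0 and 74.5 CPM (0.39 ± 0.18, adjusted p = 0.134). Of the members of at most 1000 bases 80.8% were lower (all genes 44.4%), of those above that and up to 2000 bases 50.0% (23.0%) and of the longer ones 33.3% (7.31%).

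**Figure D5:**
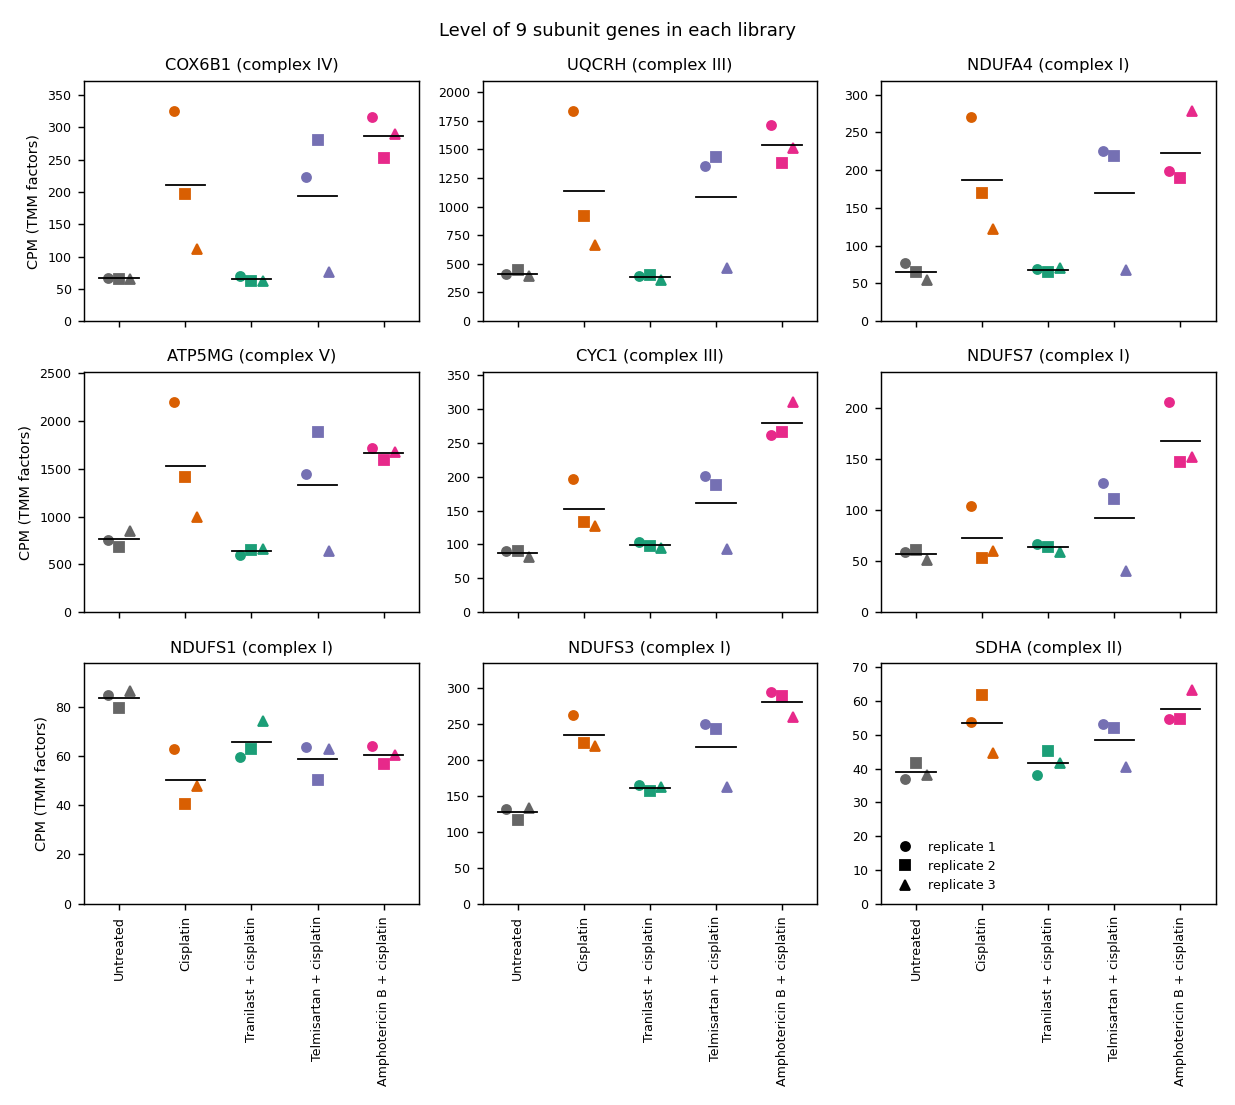
CPM (TMM factors) of 9 subunit genes in each of the 15 libraries, on linear axes from 0, with the shape giving the replicate and a bar at the mean of each condition. COX6B1, UQCRH, NDUFA4 and ATP5MG are low in untreated and Tranilast libraries and high with Amphotericin B, CYC1 and NDUFS7 are highest with Amphotericin B, NDUFS1 is highest in untreated cells, NDUFS3 is above its untreated level in all other conditions, and SDHA varies less.

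For fits without 1 library, counts over all genes are again not given. The count of 44 lower members became 26 without cisplatin replicate 1, with 2 higher, and 28, 23 and 20 without Tranilast replicate 1, 2 or 3. Without both libraries that stand apart it was 51, with 2 higher (2057 genes lower and 2032 higher in all). Under library size only it was 24 with 2 higher (397 lower and 2582 higher in all), and with length offsets 26 (1013 lower in all). In the covariate fit 0 were lower and 2 higher, against 1142 and 990 genes in all. The library size scaling moved the median of all genes to 0.46 and that of the members to -0.36, a distance of -0.83 in place of -0.92.

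The Tranilast libraries were also compared with untreated cells. In edgeR's quasi-likelihood fit 1 member was lower, ATP5S (-0.80 ± 0.22, adjusted p = 0.0333), and 0 were higher, where 5.66% and 2.44% of all genes were called. By unadjusted p (threshold 0.05) 4 were lower and 0 higher, against 12.7% and 8.67% of all genes, and DESeq2 and limma-voom also called 1 lower and 0 higher. In 39 members all Tranilast libraries lay below all untreated libraries, as in 25.1% of all genes. The 20 tested members of complex V all had log2 fold changes below 0, from -1.06 for ATP5PD to -0.09 for ATP5F1D, and the groups did not overlap in 18 of them. The count of 1 became 2 without cisplatin replicate 1 or without Telmisartan replicate 3, 0 without any single untreated or Tranilast library, 15 without both libraries that stand apart (1563 genes in all) and 30 in a fit of the 6 libraries alone. The 6-library fit takes its spread from the untreated and Tranilast libraries alone, and its count over all genes is not given.

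Amphotericin B is an antifungal polyene. Against cisplatin alone 6 members were higher and 0 lower (edgeR's quasi-likelihood test), where 4.21% and 9.01% of all genes were called, and 5.09% of the genes of higher level were higher. By unadjusted p (threshold 0.05) 2 members were lower, against 18.8% of all genes, and DESeq2 and limma-voom called 0 lower. In 15 members every Amphotericin B library lay above every cisplatin library, as in 10.9% of all genes. The median was 0.44 against -0.04 for all genes, and 75 of 82 members lay above 0. NDUFS7, a core subunit of complex I that holds its last iron-sulfur cluster, was at 104, 53.5 and 60.4 CPM with cisplatin and at 206, 147 and 152 CPM with Amphotericin B (1.22 ± 0.32, adjusted p = 0.0204). CYC1, cytochrome c1 of complex III, was at 197, 133 and 128 CPM and then at 262, 266 and 310.1 CPM (0.88 ± 0.24, adjusted p = 0.0237). NDUFB7, an accessory subunit on the intermembrane side, went from 35.8, 27.5 and 17.1 CPM to 47.6, 61.0 and 85.7 CPM (1.29 ± 0.36, adjusted p = 0.027). The libraries of the 2 conditions did not overlap in these 3 genes. NDUFA11 rose from 354, 174 and 153 CPM to 522, 460.4 and 455 CPM (1.08 ± 0.32, adjusted p = 0.0357). ATP5PB and ATP5S passed by little (0.77 ± 0.25, adjusted p = 0.0467, and 0.79 ± 0.26, adjusted p = 0.0486).

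Complexes II and IV had no call against cisplatin. SDHB and SDHC had log2 fold changes of 0.64 and -0.55 (adjusted p = 0.317 and 0.385 by edgeR), COX6A1 0.64 and COX7A2L -0.54 (adjusted p = 0.201 and 0.153), and UQCRC1 0.58 (adjusted p = 0.0875). COX6A1 shares its name with pseudogenes that hold 4365 counts beside its own 3727 and is uncertain. The count of 6 rested on the libraries used: it was 40 without cisplatin replicate 1, 16 without Telmisartan replicate 3 and 68 without both (2305 genes higher in all), but 0 without cisplatin replicate 2 or 3, and 1, 2 and 0 without Amphotericin B replicate 1, 2 or 3. With all libraries 468 genes in all were higher. Counts over all genes are not given for the fits without 1 library. The covariate fit gave 0 higher and 7 lower, against 201 and 475 genes in all.

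Against untreated cells 61 of 82 members were higher with Amphotericin B and 0 lower (edgeR's quasi-likelihood test), where 17.6% of all genes were higher and 23.3% lower, and 33.3% of the genes of higher level were higher. By unadjusted p (threshold 0.05) 3 members were lower, against 28.6% of all genes, and DESeq2 called 0 and limma-voom 1 lower. The median was 1.16, against -0.19 for all genes, and in 72 members all libraries lay above all untreated ones, as in 23.4% of all genes. Higher were 30 of 38 members in complex I, 1 of 4 in complex II (SDHA, 0.56 ± 0.19, adjusted p = 0.0226), 7 of 9 in complex III, 9 of 11 in complex IV and 14 of 20 in complex V. The change was 2.11 ± 0.37 for COX6B1 (adjusted p = 0.000389), 1.89 ± 0.36 for UQCRH (adjusted p = 0.000721) and 1.68 ± 0.24 for CYC1 (adjusted p = 9.06e-05). ATP5MC1, ATP5MC2 and ATP5MC3 code for the same mature c ring protein. ATP5MC1 went from 133, 141 and 129 CPM untreated to 695, 586 and 573 CPM (2.20 ± 0.39, adjusted p = 0.000429), ATP5MC3 had a change of 1.39 ± 0.30 (adjusted p = 0.00175) and ATP5MC2 of 0.65 ± 0.31 (adjusted p = 0.101). NDUFS1 was at 64.0, 57.0 and 60.4 CPM, below every untreated library (-0.47 ± 0.19, adjusted p = 0.0531).

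The count of 61 higher ranged from 50 to 70 over the 15 fits that left out 1 library each, and was 42 under library size only (887 genes higher in all) and 43 with length offsets (1635 in all). The covariate fit gave 0 higher and 19 lower, against 631 and 1051 genes in all. The library size scaling moved the median of all genes to -0.75 and of the members to 0.59, a distance of 1.34 from each other.

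Telmisartan blocks the receptor for angiotensin II. Against cisplatin alone 0 members were higher or lower (edgeR's quasi-likelihood test, DESeq2 and limma-voom), as were 0.0% of all genes by the edgeR test. By unadjusted p (threshold 0.05) 1 member was lower and 0 were higher, where 5.33% of all genes were lower and 5.02% higher. The median log2 fold change of the members was -0.03. COX6B1 shows the spread behind these values, with 223, 280 and 76.2 CPM in the Telmisartan libraries against 325, 197 and 112 CPM with cisplatin (-0.14 ± 0.36, adjusted p = 0.936).

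Leaving out Telmisartan replicate 3 or any other single library kept the count at 0 in both directions, but leaving out cisplatin replicate 1 and Telmisartan replicate 3 together gave 59 higher members, with 1400 genes higher and 1403 lower in all. In the covariate fit 5 were lower, against 215 genes in all. Both libraries were judged to stand apart after their values had been seen, and the cause of their position was not tested. Against untreated cells 30 members were higher and 2 lower, NDUFS1 (-0.50 ± 0.18, adjusted p = 0.0474) and ATP5S (-1.14 ± 0.23, adjusted p = 0.00178), where 12.8% and 15.8% of all genes were called. The 30 became 66 without Telmisartan replicate 3, 6 or 7 without Telmisartan replicate 1 or 2, and 15, 12 or 10 without untreated replicate 1, 2 or 3. Counts over all genes are not given for these fits. Without both libraries that stand apart 73 members were higher and 3 lower, against 2329 and 2976 genes in all. The covariate fit gave 0 higher and 42 lower members, against 1709 and 1806 genes in all. The 2 lower members became 1 without any single library of the untreated, Tranilast or Amphotericin B conditions or without Telmisartan replicate 1 or 2.

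The drugs were also compared with each other, so that the cisplatin libraries were not the reference. These libraries still entered the shared fit and its estimate of the spread. Between Tranilast and Amphotericin B, 70 of 82 members were lower with Tranilast and 0 higher (edgeR's quasi-likelihood test), where 16.4% of all genes were lower and 19.7% higher, with a median of -1.35 against 0.15 for all genes. In 74 members all Tranilast libraries lay below all Amphotericin B libraries, as in 23.3% of all genes. By unadjusted p or by DESeq2 or limma-voom 0 were higher, against 26.4% of all genes by unadjusted p. Among the genes of higher level 31.2% were lower. The log2 fold change was -1.99 ± 0.36 for UQCRH (adjusted p = 0.00116), -2.14 ± 0.37 for COX6B1 (adjusted p = 0.00108) and -2.41 ± 0.43 for ATP5PD (adjusted p = 0.00113). COX7A2L (-0.03 ± 0.25, adjusted p = 0.943) did not pass. The count ranged from 60 to 73 when each library was left out and was 52 under library size only (763 genes lower in all), 55 with length offsets (1387 in all) and 0 in the covariate fit, where 2 genes in all were lower.

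Between Tranilast and Telmisartan 10 members were lower with Tranilast and 0 higher, where 1.75% and 0.585% of all genes were called. By unadjusted p 0 were higher, against 9.98% of all genes, as by DESeq2 and limma-voom. The lower members were NDUFA12, NDUFB4, NDUFS5, UQCR10, UQCRH, COX6B1, ATP5MC1, ATP5MC3, ATP5MF and ATP5PD, with adjusted p-values from 0.0438 to 0.0463 (edgeR's quasi-likelihood test). The number was 73 without Telmisartan replicate 3, 49 without cisplatin replicate 1, 31 without cisplatin replicate 3, 3 without cisplatin replicate 2 and 0 when any library of the other conditions or Telmisartan replicate 1 or 2 was left out. With the replicate block it was 19, and by DESeq2 42. Between Telmisartan and Amphotericin B 0 members were called by edgeR, DESeq2 or limma-voom, 10 were lower with Telmisartan and 0 higher by unadjusted p (against 7.49% and 13.1% of all genes, with 0.0% by adjusted p), and the median was -0.42 against 0.06 for all genes. Leaving out cisplatin replicate 1 gave 3 lower members.

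Over all 82 members, the mean level was highest with Amphotericin B in 70, with cisplatin in 7, with Telmisartan in 3, untreated in 2 and with Tranilast in 0. It was lowest with Tranilast in 61, untreated in 18, with cisplatin in 2 and with Amphotericin B in 1. Neighbors in this order are not all separated, since in the comparison of Telmisartan with cisplatin 1 of the 82 members had all Telmisartan libraries below the cisplatin ones and 0 had them above, as 4.89% and 4.38% of all genes did. ATP5IF1, the inhibitor that keeps ATP synthase from running in reverse, followed the order without a call in 3 comparisons: it was at 418 to 453 CPM untreated, 419 to 793 CPM with cisplatin (0.37, adjusted p = 0.275), 333 to 369.9 CPM with Tranilast (-0.70 against cisplatin, adjusted p = 0.0646) and 663 to 849 CPM with Amphotericin B (0.40 against cisplatin, adjusted p = 0.309).

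Other genes that respiration needs were examined as lists, whose counts stand beside 21.1% of all genes higher and 23.6% lower with cisplatin, and 10.5% higher and 11.6% lower with Tranilast against cisplatin. Among genes of higher level 35.4% were higher with cisplatin and 24.4% lower with Tranilast. Values for these lists come from the fit of all 15 libraries with TMM factors, without length offsets, the covariate or libraries left out. The part of transcript length in them was not tested. The 13 subunits coded in the mitochondrial genome, which are not members, had 8 higher and 0 lower with cisplatin and 8 lower and 0 higher with Tranilast against cisplatin (edgeR's quasi-likelihood test). MT-CO1, the catalytic subunit of complex IV, was between 611 and 769.7 CPM in the untreated libraries, between 2078 and 6138 CPM with cisplatin and between 948 and 1153 CPM with Tranilast (2.53 ± 0.39, adjusted p = 8.36e-05, and -1.96 ± 0.38, adjusted p = 0.0031). MT-ND1, a membrane subunit of complex I, changed by 2.80 ± 0.43 with cisplatin (adjusted p = 8.44e-05) and by -2.14 ± 0.42 with Tranilast (adjusted p = 0.00324). With Amphotericin B against cisplatin this list had 3 lower and 0 higher (MT-ATP8, MT-ND3 and MT-ATP6). Of all genes 9.01% were lower and 4.21% higher in this comparison, and 5.09% of the genes of higher level were higher. The nuclear members had 6 higher and 0 lower, and the number higher ranged from 0 to 40 when 1 library was left out. The 13 subunits of this list are coded on the same genome as the mitochondrial ribosomal RNA.

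Of the 49 assembly factors 14 were higher and 3 lower with cisplatin, and 10 were lower and 0 higher with Tranilast, or 28.6% higher with cisplatin and 20.4% lower with Tranilast, which lies between the shares of all genes and of genes of higher level. SCO2, which delivers copper to complex IV, was between 29.1 and 29.7 CPM untreated, between 92.9 and 122 CPM with cisplatin and between 41.8 and 53.2 CPM with Tranilast (1.81 ± 0.22, adjusted p = 1.39e-05, and -1.15 ± 0.22, adjusted p = 0.00277). UQCC3, an assembly factor of complex III, had changes of 1.27 with cisplatin and -0.82 with Tranilast (adjusted p = 0.0011 and 0.0332), and COX16, an assembly factor of complex IV, of 0.87 and -1.35 (adjusted p = 0.0127 and 0.00351). Of the 11 carriers of electrons, ATP and phosphate tested, 7 were higher with cisplatin and 2 lower with Tranilast, CYCS (cytochrome c, 0.92 and -0.92, adjusted p = 0.00711 and 0.0164) and VDAC1 (0.61 and -0.67, adjusted p = 0.0352 and 0.0416), and VDAC3 had a change of 0.63 with cisplatin (adjusted p = 0.00794).

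Of the 14 tested factors that control these genes, 4 were higher and 6 lower with cisplatin, and 2 were higher and 3 lower with Tranilast, where 21.1% and 23.6%, and 10.5% and 11.6%, of all genes were called. TFAM, which packs and transcribes mitochondrial DNA, was between 56.1 and 58.3 CPM untreated and between 153 and 221 CPM with cisplatin (1.77 ± 0.18, adjusted p = 5.72e-06), and between 73.1 and 88.6 CPM with Tranilast (-1.25 ± 0.18, adjusted p = 0.00114). LRPPRC, which stabilizes mitochondrial messengers, went the other way, from between 193 and 213 CPM to between 71.6 and 90.2 CPM (-1.36 ± 0.17, adjusted p = 1.7e-05), and to between 111 and 137 CPM with Tranilast (0.63 ± 0.17, adjusted p = 0.0149). Its partner SLIRP had changes of 1.04 and -1.31 (adjusted p = 0.02 and 0.0125). The coactivator PPARGC1A had at most 1 count in a library and was not tested.

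Fuel pathways outside the chain were counted in the same way. Of 14 enzymes of the tricarboxylic acid cycle 1 was higher and 3 lower with cisplatin, and 1 was higher and 0 lower with Tranilast. DLD, a shared subunit of the dehydrogenase complexes, had changes of -0.86 and 0.56 (adjusted p = 0.000913 and 0.0297), SUCLG2 of -1.14 and -0.01 (adjusted p = 0.0107 and 0.985) and IDH3B of 0.61 and -0.53 (adjusted p = 0.0259 and 0.0756). Of 17 glycolysis genes 3 were higher and 3 lower with cisplatin and 1 was higher and 0 lower with Tranilast, which are near the shares of all genes or below them. With Amphotericin B against untreated 9 of the 17 glycolysis genes were higher and 1 lower, and 4 of the 14 cycle enzymes were higher and 1 lower, where 17.6% of all genes were higher and 23.3% lower. HK2, a hexokinase that binds to mitochondria, was between 17.9 and 22.9 CPM untreated, 4.42 and 8.96 CPM with cisplatin and 15.8 and 19.9 CPM with Tranilast (-1.46 ± 0.28, adjusted p = 0.000604, and 1.23 ± 0.29, adjusted p = 0.00688). PFKP had changes of -1.07 and 0.61 (adjusted p = 0.00256 and 0.09) and TPI1 of 1.03 and -0.76 (adjusted p = 0.00755 and 0.0621).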

How the data were processed

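The authors sequenced 15 QuantSeq 3′ libraries and deposited, for each, raw read counts per Ensembl gene, with no normalization or filter. The submitters' processing notes name STAR 2.3.0, HTSeq and hg19; the annotation release and the use of strand are not given in the sources used here. Gene names, positions and transcript lengths came from GENCODE 29 on GRCh38, which holds 45776 of the 47634 identifiers, and pseudogenes were matched by name.

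From these counts the following was computed. For the 11113 genes kept by filterByExpr, all 15 libraries entered 1 quasi-likelihood model of edgeR 4.0.16 (R 4.3.3) with TMM factors and condition as the factor. Values of p were adjusted by Benjamini and Hochberg over all genes tested in each of 10 comparisons, with a threshold of 0.05. Drug combinations compared with cisplatin share its 3 libraries. The F statistic gave each standard error, as the log2 fold change without its sign divided by the root of F. Tables were made with Python 3.11.15, numpy 2.4.6 and pandas 2.3.3, and plots with matplotlib 3.10.9. Simulated counts were used to test the scripts.

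The depth of 1510620 to 3517041 counts per library means that 3 counts, the limit that a count of 0 allows, are 8.53e-05 to 0.000199% of a library, which covers counting error only. The chi-square between replicates per gene was at least 2.36, so every library was kept as a separate sample.

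Members and lists were chosen with earlier results of these data known. The genes named with values are the 2 members of each complex with the highest mean CPM, the 2 with the smallest p in each complex with cisplatin, Tranilast and Amphotericin B, the members called against the majority, copies of a subunit, ATP5IF1, and the 2 genes of each of 6 other lists with the smallest p with cisplatin and with Tranilast. The values of 1 gene that this rule names are not reported here. Further genes named within a count, by role or for a printed promoter were chosen after their values were seen. Alternatives were DESeq2 1.42.0, limma-voom (limma 3.58.1), edgeR's likelihood ratio test, RLE factors, library size only, no filter, the 6 libraries of a comparison, the replicate number as a block, offsets for transcript length, both of these, and leaving out each library; 2 more were added after the values were seen. Promoters came from RefSeq (GRCh38.p14).

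Replicate numbers come from the sample labels. Each library's deviation from its condition mean was correlated across genes with that of other libraries, with 0.02 on average for equal numbers and -0.01 for different numbers, so the numbers were not taken to pair the samples.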

Additional observations from a re-analysis of the deposited data

How the results depend on the processing

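Values are numbers of the 82 members called. Counts over all genes in the same fits stand above for some of them only. With cisplatin against untreated, 41 higher and 2 lower became 16 and 6 under library size only, 21 higher with length offsets, 22 higher with the block and length offsets, 1 and 30 with mitochondrial rRNA as a covariate, and 7 lower without both libraries that stand apart. With Tranilast against cisplatin, 44 lower and 0 higher became 24 and 2 under library size only, 26 lower with length offsets, 28 and 1 with block and length offsets, 0 and 2 with the covariate, and 2 higher without both libraries. With Telmisartan against cisplatin, 0 and 0 became 59 higher without both libraries and 5 lower with the covariate. With Amphotericin B against cisplatin, 6 higher and 0 lower became 68 and 1 without both libraries, 0 and 7 with the covariate, 1 higher in the 6-library fit, 1 lower under library size only and 1 lower with length offsets. With Tranilast against untreated, 1 lower and 0 higher became 15 and 1 without both libraries, 24 lower with the covariate, 30 and 2 in the 6-library fit, and 0 lower under library size only, length offsets, and block and length offsets. With Telmisartan against untreated, 30 higher and 2 lower became 73 higher without both libraries, 0 and 42 with the covariate, 14 higher under library size only, 19 higher with limma-voom, 46 and 1 without a filter, 19 and 1 in the 6-library fit, 16 and 1 with length offsets, 18 and 1 with block and length offsets, and 1 lower with RLE factors. With Amphotericin B against untreated, 61 higher and 0 lower became 0 and 19 with the covariate. The number lower there was 3 without both libraries, 4 under library size only, 2 by the likelihood ratio test and 1 by limma-voom, by the block, by length offsets and by both. Between Tranilast and Amphotericin B, 70 lower and 0 higher became 0 lower with the covariate and 3 higher under library size only. Between Tranilast and Telmisartan, 10 lower became 42 by DESeq2, 43 by the likelihood ratio test, 51 without a filter, 74 without both libraries, 19 with the block, 3 with block and length offsets, 1 with length offsets, and 0 under library size only, limma-voom, the 6-library fit and the covariate, which gave 1 higher. Between Telmisartan and Amphotericin B, 0 lower became 1 without both libraries, 2 by the likelihood ratio test and 4 without a filter.

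Leaving out 1 library at a time gave these ranges of members, for which counts over all genes are not given. With cisplatin 18 to 52 were higher and 2 lower. With Tranilast against cisplatin 20 to 59 were lower and 0 to 2 higher. With Amphotericin B against cisplatin 0 to 40 were higher. Against untreated, 0 to 2 were lower with Tranilast, 6 to 66 higher and 1 to 2 lower with Telmisartan, and 50 to 70 higher and 0 to 3 lower with Amphotericin B. Between drugs, 60 to 73 were lower for Tranilast against Amphotericin B, 0 to 73 for Tranilast against Telmisartan and 0 to 3 for Telmisartan against Amphotericin B.

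The replicate block gave 39 higher and 2 lower with cisplatin, 43 lower with Tranilast against cisplatin, 9 higher with Amphotericin B against cisplatin, and 63 higher and 1 lower with Amphotericin B against untreated. The numbers pair no samples by the labels, and the block moved the count by over 1.5 times for Tranilast against Telmisartan (19 in place of 10) and for the 1 lower member with Amphotericin B against untreated.

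The values of single named members include some without a call by edgeR's quasi-likelihood test, which count as kept when they stay uncalled. Fits that leave out a library of a condition outside the comparison are included too. Of all these values, 737 kept direction and side of the threshold over the alternatives, 72 lost their call, 19 gained a call and 9 turned. Those that turned were NDUFS1 with cisplatin (0.056 with length offsets, 0.052 with block and length offsets), SDHA with Tranilast (0.10 under library size only), and 6 under the covariate: COX7B, UQCRH and SDHC with cisplatin (-0.031, -0.023 and -0.551), SDHC with Tranilast (0.18), and COX6A1 and SDHB with Amphotericin B against cisplatin (-0.12 and -0.17). The cause was not tested in any case, and totals under 3517041 counts limit the precision of genes such as SDHD.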
